A study of Mus musculus with 12 samples.

Results

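The genes described here encode the urea cycle and its supply of ammonia and aspartate, and they were the 9 rows of a table of 25239 gene symbols whose symbol was Cps1, Otc, Ass1, Asl, Nags, Slc25a15, Slc25a13, Got1 or Glud1. All 9 symbols were found. The table held messenger RNA sequencing counts from liver and brain of wild-type (WT) male C57BL6/J mice aged 24 months, with 3 libraries per group in each tissue and 12 libraries in all. The heat stress groups had been kept at 40 °C and 60% relative humidity for 3 hours a day over 15 days, while the control groups had the same genotype and age without that exposure. The comparison asks how repeated heat exposure of old animals bears on hepatic nitrogen disposal, with brain as the reference tissue. Total counts per library ran from 10466198 to 15609040. The study's methods give 3 animals per group, the number of libraries per group and tissue. The labels do not tie a library to an animal.

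The urea cycle turns ammonia and the amino group of aspartate into urea, which the kidney excretes. It starts in the mitochondria of hepatocytes, most of all in those near the portal vein, and ends in their cytosol. Brain lacks the complete cycle and binds ammonia mainly by making glutamine.

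In liver, no member passed the test for a difference between heat stress and control. By edgeR's quasi-likelihood test, 0 of 9 members had an adjusted p under 0.05, and 0 had an unadjusted p under 0.05. The same test called 0.0% of the 12296 genes tested at an adjusted p under 0.05, and at an unadjusted p under 0.05 it placed 2.97% of them higher and 2.87% lower. DESeq2 also called 0 members at an adjusted p under 0.05, and 1 member, Slc25a15, at an unadjusted p under 0.05. Over the 17860 genes with a value by DESeq2, 28 were higher and 33 lower at an adjusted p under 0.05, and 285 were higher and 342 lower at an unadjusted p under 0.05. The fold changes were positive for 3 members and negative for 6, with a median log2 fold change of -0.25, beside 0.01 over all genes tested. Slc25a15, the mitochondrial ornithine carrier, was the only member whose control and heat stress libraries did not overlap.

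Several facts about the libraries bear on these values. Hepatocyte marker genes summed to between 83861 and 131185 normalised CPM (counts scaled to library size) in the liver libraries and to between 229 and 2328 CPM in the brain libraries, where the list includes Ttr, a gene that choroid plexus also expresses. Albumin reached at most 9.58 CPM in any brain library. A list of 10 skeletal muscle genes stood out in a pair of liver libraries. Their summed level was 453 CPM in control replicate 1, against 3.26 and 1.21 CPM in the other controls, and 2490 CPM in heat stress replicate 2, against 3.72 and 7.81 CPM in the other heat stress libraries. Neuronal genes were also highest in liver control replicate 1, at 34.5 CPM, with 13.4 to 20.3 CPM in the other 5 liver libraries. The names of 1 control and 2 heat stress liver columns carried an added suffix whose meaning was not given. Both muscle-containing libraries were among the columns without the suffix, where heat stress replicate 2 was the only heat stress library. The liver heat effect and its difference from brain were therefore also computed without the pair of muscle-containing libraries. The liver heat effect was also fitted with the suffix as a factor, and for the members computed within the columns with and without it. The members' share of the library, their relative and per-kilobase levels and the marker sums were not recomputed in these ways.

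The mitochondrial entry enzymes were the first group. Cps1, carbamoyl phosphate synthetase 1 (chr1:67123026-67231259, plus strand, mm10), joins ammonia and bicarbonate in the first committed step of the cycle. Its normalised level in liver was 3304, 2765 and 3096 CPM in controls and 2815, 2814 and 2104 CPM under heat stress. All 3 heat stress libraries lay below 2 of the controls, but the lowest control lay below 2 of them, so the groups overlapped. The log2 fold change was -0.25 (SE 0.21, 95% interval -0.71 to 0.22, adjusted p = 0.947 by edgeR), and -0.13 without heat stress replicate 3. Cps1 alone supplied 43.9% to 50.5% of all member counts in control liver and 40.8% to 47.4% under heat stress.

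Nags makes N-acetylglutamate, the obligatory activator of the Cps1 enzyme (chr11:102145513-102149477, plus strand). It read 89.5, 71.1 and 43.9 CPM in control liver and 49.2, 59.0 and 56.9 CPM under heat stress. The heat stress libraries all fell inside the range of the controls. Its log2 fold change was -0.31 (SE 0.25, 95% interval -0.86 to 0.24, adjusted p = 0.943 by edgeR). The value rested on single controls: without control replicate 1 it was -0.07, and without control replicate 3 it was -0.55, with an unadjusted edgeR p of 0.0276. Without the pair of muscle-containing libraries it was -0.13. Of the 1929 windows of 100 bases along the Nags transcript, 17.9% were identical, on either strand, to a window of Gm11586. That gene had no row among the counts, and the part of shared reads in the Nags level was not tested.

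Otc, ornithine transcarbamylase (chrX:10252305-10321024, plus strand), joins carbamoyl phosphate to ornithine to give citrulline. Its levels were 619, 733 and 774 CPM in control liver and 667, 537 and 580 CPM under heat stress. The lowest control lay between the heat stress values. The log2 fold change was -0.25 (SE 0.19, 95% interval -0.68 to 0.17, adjusted p = 0.939 by edgeR).

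The cytosolic enzymes that carry citrulline to arginine included the least abundant member. Ass1, argininosuccinate synthase 1 (chr2:31470207-31520672, plus strand), condenses citrulline with aspartate. Only 21, 20 and 11 reads were counted for it in control liver and 15, 13 and 12 under heat stress, or 1.36, 1.63 and 1.03 CPM against 1.12, 0.906 and 0.946 CPM. The lowest control lay within the heat stress range, and the log2 fold change was -0.44 (SE 0.36, 95% interval -1.25 to 0.37, adjusted p = 0.947 by edgeR). Without control replicate 2 it was -0.27.

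These low counts stood beside a near-identical copy of the transcript. The processed pseudogene Gm5424, a retrotransposed gene copy on chromosome 10, aligned to positions 203 to 1442 of the 1696-base Ass1 transcript with 6 mismatches, an identity of 99.52%. Of 1597 windows of 100 bases along Ass1, 622 (38.9%) occurred without change in Gm5424 and 975 did not. Gm5424 itself had 0 counts in all 12 libraries. How reads that match several places were counted is not given in the sources used here, so the level of Ass1 is uncertain. The part of reads left uncounted in its low value was not tested, and 975 of the 1597 windows were not shared. The stretch below, inside the open reading frame, is shown because it makes plain how little separates the copies; the capital marks the only base that differs.
Ass1 transcript, positions 808 to 907: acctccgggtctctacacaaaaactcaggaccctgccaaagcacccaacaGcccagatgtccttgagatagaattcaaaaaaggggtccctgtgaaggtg
Gm5424 transcript, positions 606 to 705: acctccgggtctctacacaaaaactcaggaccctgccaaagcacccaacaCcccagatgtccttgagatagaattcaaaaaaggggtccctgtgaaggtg

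Asl, argininosuccinate lyase (chr5:130011258-130029247, minus strand), splits argininosuccinate into arginine and fumarate. It measured 692, 463 and 556 CPM in control liver and 587, 711 and 607 CPM under heat stress. A control and a heat stress library shared the top of the range. Its log2 fold change was 0.15 (SE 0.21, 95% interval -0.31 to 0.62, adjusted p = 0.963 by edgeR). It was 0.02 without control replicate 2, 0.07 without heat stress replicate 2, 0.30 without control replicate 1 and 0.28 with the suffix as a factor.

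Carriers of the inner mitochondrial membrane link the mitochondrial and cytosolic steps of the cycle. Slc25a15 (chr8:22375551-22398597, minus strand) exchanges ornithine for citrulline. It measured 407, 447 and 425 CPM in control liver, a mean of 426 ± 19.9 CPM (SD, n = 3), and 370, 331 and 297 CPM under heat stress, a mean of 333 ± 36.5 CPM (SD, n = 3). Every heat stress library lay below every control. The log2 fold change was -0.36 (SE 0.18, 95% interval -0.76 to 0.04), with an unadjusted p of 0.0747 and an adjusted p of 0.890 by edgeR, so the difference did not pass the test. Of all genes tested in liver, 5.73% had heat stress libraries wholly below the controls and 5.38% wholly above, beside 1 of 9 members and 0 of 9 members. Without the pair of muscle-containing libraries the log2 fold change was -0.40 (unadjusted p = 0.0693 by edgeR). It was -0.33 among the columns without the suffix and -0.43 among those with it.

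Slc25a13, the aspartate and glutamate carrier known as citrin (chr6:6041218-6217173, minus strand), brings aspartate into the cytosol for the Ass1 reaction. It measured 171, 161 and 141 CPM in control liver and 180, 159 and 172 CPM under heat stress. The upper 2 heat stress values lay above every control and the lowest lay among the controls. Its log2 fold change was 0.11 (SE 0.17, 95% interval -0.27 to 0.49, adjusted p = 0.965 by edgeR), and 0.04 without control replicate 3, 0.05 without heat stress replicate 1 and 0.20 without the pair of muscle-containing libraries.

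**Figure D1:**
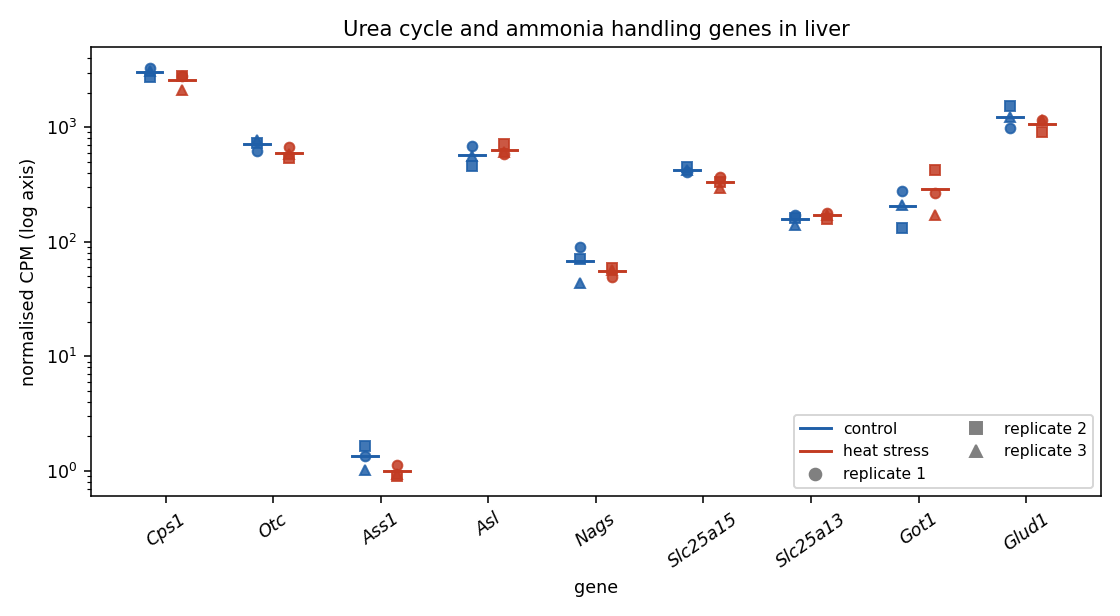
Normalised CPM on a log axis for the 9 members in liver. Points are libraries, with circle, square and triangle for replicates 1, 2 and 3, and horizontal lines are group means. Control and heat stress points overlap for every member except Slc25a15, and Ass1 lies near 1 CPM, far below the other 8.

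Enzymes that feed nitrogen into the cycle formed the last group. Got1, cytosolic aspartate aminotransferase (chr19:43499752-43524605, minus strand), interconverts glutamate and aspartate. It was the most variable member in heat-stressed liver, with a coefficient of variation of 43.7%. It measured 277, 132 and 208 CPM in controls and 268, 422 and 173 CPM under heat stress. The log2 fold change was 0.48 (SE 0.35, 95% interval -0.29 to 1.26, adjusted p = 0.936 by edgeR). The highest control and the highest heat stress library were the 2 that held skeletal muscle transcripts, a tissue that also expresses Got1. The part of muscle in the Got1 values was not tested. Without both libraries, the log2 fold change was 0.36 (unadjusted p = 0.180 by edgeR). Without heat stress replicate 2 alone it was 0.10, and without control replicate 1 alone 0.74. It was 0.24 without control replicate 2 and 0.73 without heat stress replicate 3. It was 0.81 among the columns without the suffix and 0.70 among those with it, where each side held 1 or 2 libraries per group. The only heat stress library without the suffix was replicate 2, which held muscle transcripts, so the 0.81 rests on that library. With the suffix as a factor in the edgeR fit the log2 fold change was 0.77. Its unadjusted p by edgeR was 0.00716 and its adjusted p 0.419. In that fit 529 of the 12296 genes were higher and 517 lower at an unadjusted p under 0.05.

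Glud1, mitochondrial glutamate dehydrogenase (chr14:34310727-34345265, plus strand), frees ammonia from glutamate. Its levels were 975, 1519 and 1217 CPM in control liver and 1148, 902 and 1163 CPM under heat stress. The controls spread more widely than the heat stress libraries and enclosed 2 of the 3. Its log2 fold change was -0.21 (SE 0.23, 95% interval -0.71 to 0.29, adjusted p = 0.947 by edgeR). It was -0.03 without control replicate 2, -0.10 without heat stress replicate 2, -0.37 without control replicate 1 and -0.34 with the suffix as a factor. Of its 3291 windows, 3.6% were shared with another gene.

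**Figure D2:**
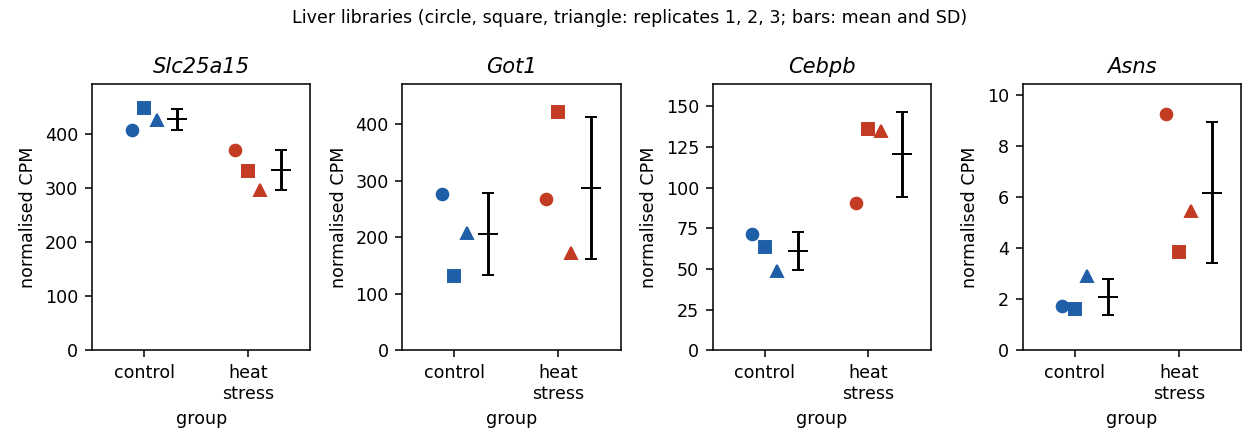
Normalised CPM in the 6 liver libraries for Slc25a15, Got1, Cebpb and Asns on linear axes from 0. Points are libraries and bars are the mean and SD of 3. Slc25a15 runs from 297 to 370 CPM under heat stress against 407 to 447 CPM in controls, while the Got1 groups overlap; Cebpb and Asns lie higher in all 3 heat stress libraries.

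Taking the members as a whole, their counts made up 0.649%, 0.638% and 0.663% of control liver libraries and 0.594%, 0.628% and 0.478% of heat stress libraries. All 3 heat stress shares were below the controls, 2 by a wide margin and replicate 2 by little. The 95% binomial interval (Wilson), which covers counting error only, was 0.624% to 0.633% in heat stress replicate 2 and 0.634% to 0.643% in control replicate 2. The group means were 0.650 ± 0.0122% and 0.567 ± 0.0785% (SD, n = 3 each). The lowest share was that of heat stress replicate 3, which among the heat stress libraries also had the lowest normalised level of Cps1, Slc25a15 and Got1. After TMM scaling the members summed to 6536, 6294 and 6463 CPM in control liver and 6084, 5935 and 5153 CPM under heat stress. On that scale replicate 1, in place of replicate 2, lay nearest to the controls. Neither the shares nor the sums were tested. Of the 12296 single genes tested in liver, 5.73% lay wholly below the controls under heat stress. Cps1 alone supplied 40.8% to 50.5% of the member counts in the liver libraries.

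Each member was also set against the mean log2 level of the 9 in the same library, which removes a shift common to them. Slc25a13 was higher relative to that mean in all 3 heat stress libraries, by 0.22 on the log2 scale (exact permutation p = 0.1, two-sided, the smallest that 3 against 3 libraries allow). The other 8 members overlapped, with Got1 at 0.56 (exact permutation p = 0.4), Asl at 0.27 and Slc25a15 at -0.26 (exact permutation p = 0.2 for each). Got1 was at 0.26 without heat stress replicate 2 and at 0.28 without control replicate 2, and Asl was at 0.14 without control replicate 2. Against the same mean, 8.9% of all genes tested had heat stress libraries wholly above the controls and 2.77% wholly below, so 1 of 9 higher is near that background. The separation depended on Ass1, whose level is uncertain. With Ass1 left out of the reference mean, a choice made after seeing the data, Slc25a13 was at 0.19 (exact permutation p = 0.2). Slc25a15 was then lower in all 3 heat stress libraries, at -0.29 (exact permutation p = 0.1), but its nearest control and heat stress libraries were almost level. The share of all genes without overlap was not computed for this changed reference.

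Compared per length of transcript, the order of levels in control liver ran from Cps1 down to Ass1. On the scale of normalised CPM per kilobase of exon, Cps1 stood at 814 ± 126 and Glud1 at 534 ± 87.2 (SD, n = 3 each). These 2 did not overlap with their neighbours in the order. Asl at 285 ± 78.0 overlapped with Otc at 245 ± 13.9, and Slc25a15 at 183 ± 6.40 overlapped with Got1 at 150 ± 62.4. Slc25a13 at 74.8 ± 11.5 overlapped with Nags at 50.2 ± 19.8, and Ass1 came last at 1.16 ± 0.263. Under heat stress the first 3 places were the same, with Cps1 at 676 ± 116, Glud1 at 458 ± 52.9 and Asl at 310 ± 40.2 CPM per kilobase. Got1, at 204 ± 94.1, then stood beside Otc, at 204 ± 19.3.

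Brain gave a different picture of the same genes. Cps1 had 7, 7 and 3 counts in control brain and 7, 12 and 5 under heat stress. Otc, Nags and Ass1 had at most 5 counts in any brain library. These 4 members were too low for the heat stress test in brain. The abundant members there were Got1, at 113 ± 18.0 CPM per kilobase in controls, and Glud1, at 65.7 ± 7.0. Asl at 3.84 ± 0.282, Slc25a15 at 3.09 ± 0.195 and Slc25a13 at 0.977 ± 0.263 followed, each separate from its neighbours.

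Control liver exceeded control brain in 8 of 9 members at an adjusted p under 0.05 by edgeR, beside 35.5% of the 15213 genes tested. Cps1, Otc, Ass1 and Nags, with 17, 1, 6 and 7 counts over all control brain libraries, entered that test through their liver counts, so their call was set by the filter and the count of 8 is no support beyond the levels themselves. The size of these differences depended on the scaling. The TMM factors over all 12 libraries, which correct for the few very abundant transcripts of a library, were 0.622 to 0.722 in control liver and 1.41 to 1.51 in control brain. With library size alone, a choice made after seeing the data, the median log2 difference over all genes was -1.30 in place of -0.20, and 2930 genes were higher and 9729 lower in liver in place of 5406 and 6509. Otc had a single count in the 3 control brain libraries together against 26890 in liver. That was a ratio of 58120 after TMM scaling, with an exact counting interval of 10431 to 2295700, and of 27124 with library size alone. Cps1 was 15042 times higher with TMM scaling (9395 to 25823) and 7020 times with library size alone. Smaller TMM-scaled ratios were found for Nags (843), Slc25a13 (77.6), Asl (75.3), Slc25a15 (59.6), Ass1 (18.7) and Glud1 (8.15). The Ass1 ratio rested on 6 counts in control brain, 5 of them in replicate 1, and its counting interval ran from 8.05 to 53.4. With library size alone the ratio was 8.74 for Ass1 and 3.81 for Glud1, and the same 8 members were higher in liver at an adjusted p under 0.05 by edgeR. Its log2 difference was 4.13 by edgeR, 5.63 without brain control replicate 1 and 3.53 without brain control replicate 3. Got1 was the exception, and its direction turned with the scaling. With TMM factors the groups overlapped, with a log2 difference of 0.42 (95% interval -0.28 to 1.12, adjusted p = 0.236 by edgeR), which was 0.07 without liver control replicate 1 and 0.69 without liver control replicate 2. With library size alone Got1 measured 275, 134 and 213 CPM in control liver and 396, 278 and 340 CPM in control brain. Every liver library then lay below every brain library, at a log2 difference of -0.71 (adjusted p = 0.0381 by edgeR), so no order of the tissues is given for this gene. Lower content of a cell type and less RNA per cell cannot be told apart in such bulk samples.

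**Figure D3:**
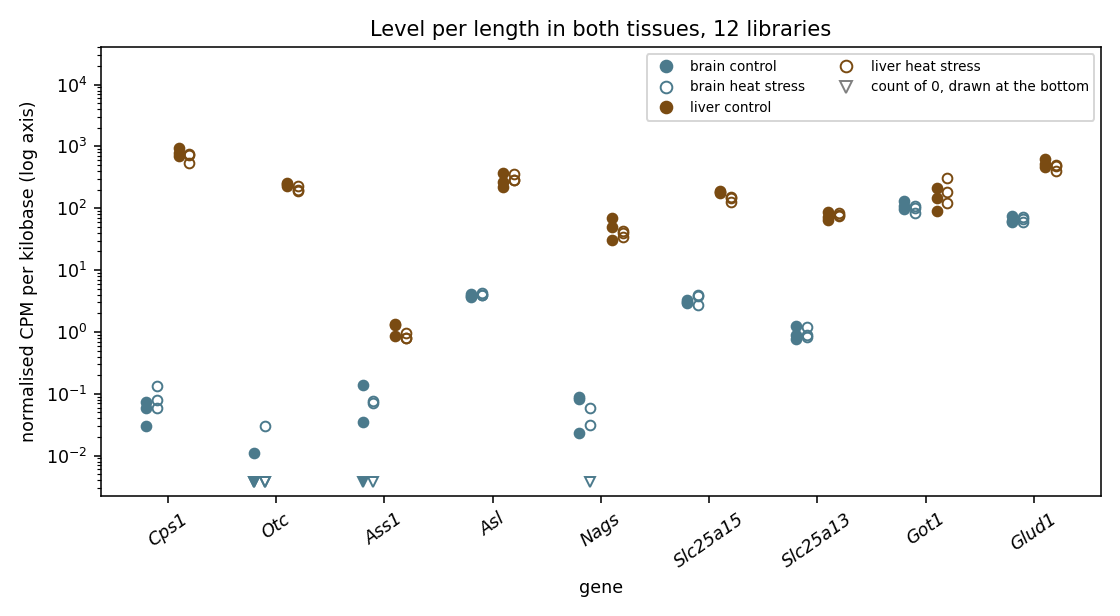
Normalised CPM per kilobase of exon on a log axis for the 9 members in all 12 libraries. Filled points are control and open points heat stress, with triangles at the bottom for counts of 0. With the TMM factors used here, liver points lie above brain points for every member except Got1, where the tissues overlap; with library size alone the control liver points of Got1 lie below those of brain.

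The 250 bases before the RefSeq start (GRCm38.p6, the build also called mm10) were read for the 7 members with an entry. Otc and Got1 are shown because one was near absent from brain and the other was the most abundant member there. The Otc stretch holds 1 CG dinucleotide, and 18.8% of 32851 promoters hold as few. The Got1 stretch holds 11, and the median over all promoters is 6. Nags and Ass1, also very low in brain with 7 and 6 counts over the controls, hold 11 and 23. Capitals mark CCAAT or its reverse complement, which occurs 5 times before Got1, once before Slc25a13 and in 33.85% of all promoters. The lines below run 5′ to 3′ on the strand of the gene.
Otc, chrX:10252055-10252304, plus strand: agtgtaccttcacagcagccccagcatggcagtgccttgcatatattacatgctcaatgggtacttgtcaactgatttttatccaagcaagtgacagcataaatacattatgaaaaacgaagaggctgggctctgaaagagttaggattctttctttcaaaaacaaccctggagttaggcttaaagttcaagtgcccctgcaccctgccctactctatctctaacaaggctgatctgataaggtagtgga
Got1, chr19:43524606-43524855, minus strand: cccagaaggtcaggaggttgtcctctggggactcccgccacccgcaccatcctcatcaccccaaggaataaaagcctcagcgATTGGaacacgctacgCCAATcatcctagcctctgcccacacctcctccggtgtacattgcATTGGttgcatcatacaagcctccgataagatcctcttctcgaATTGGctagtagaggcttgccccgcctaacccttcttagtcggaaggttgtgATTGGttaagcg
GGGCGG, on either strand, occurs before Ass1, Nags, Slc25a15 and Glud1 and in 32.74% of promoters. No member held TATAAA (12.37% of promoters), TTNNGCAA (9.56%) or CAAAGTCCA (0.38%). These are matches of letters in a window and no measure of binding.

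In brain, none of the 5 members tested passed the test between heat stress and control, with 0 at an adjusted p under 0.05 and 0 at an unadjusted p under 0.05 by edgeR. DESeq2 gave an adjusted p for Got1 and Glud1 alone, 0.465 and 0.927, and 0 of the 5 had an unadjusted p under 0.05 by that tool. Over all 14806 genes tested in brain, 0.0% passed the adjusted threshold, while 10.0% were higher and 10.0% lower at an unadjusted p under 0.05. No member separated the groups, although 12.9% of all genes did so upwards and 12% (1774 genes) downwards. Got1 measured 396, 291 and 328 CPM in control brain and 330, 255 and 307 CPM under heat stress. The groups overlapped, and the log2 fold change was -0.19 (SE 0.16, adjusted p = 0.520 by edgeR), -0.06 without brain control replicate 1, -0.09 without brain heat stress replicate 2 and -0.29 without brain control replicate 2. Slc25a15 measured 14.8, 16.8 and 15.0 CPM in control brain and 20.0, 19.2 and 13.7 CPM under heat stress. That was higher in 2 libraries and lower in the third, a log2 fold change of 0.19 (SE 0.17, adjusted p = 0.549 by edgeR). It was 0.08 without heat stress replicate 1, 0.12 without heat stress replicate 2 and 0.34 without heat stress replicate 3. Asl, Glud1 and Slc25a13 had log2 fold changes of 0.09, 0.03 and 0.02. That of Asl was 0.05 without control replicate 2 or heat stress replicate 1 and 0.14 without control replicate 3.

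**Figure D4:**
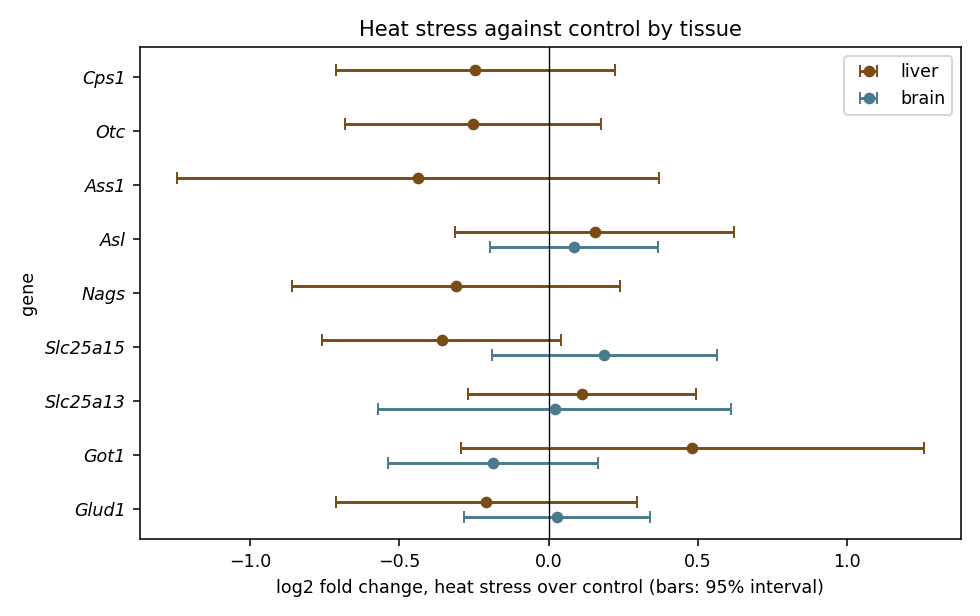
Log2 fold change of heat stress over control for each member, in liver for all 9 and in brain for the 5 that were tested. Points are edgeR estimates and bars 95% intervals. Every interval includes 0, and that of Slc25a15 in liver, from -0.76 to 0.04, reaches least far past it.

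Whether the heat effect differed between the tissues was tested as an interaction in a fit of all 12 libraries. No member passed at an adjusted p under 0.05, beside 0.00632% of the 15824 genes tested. At an unadjusted p under 0.05 Slc25a15 alone was found, beside 9.64% of all genes. It is 1 of the 5 members that were tested in both tissues; Cps1, Otc, Ass1 and Nags entered the fit through liver, with 0 to 12 counts per brain library. The effect on Slc25a15 in liver minus that in brain was -0.55 on the log2 scale (SE 0.25, 95% interval -1.09 to -0.02, unadjusted p = 0.0438, adjusted p = 0.516 by edgeR). Without the pair of muscle-containing libraries it was -0.55 as well, with an unadjusted p of 0.0516 by edgeR. With the replicate number as a block it was -0.55, with an unadjusted p of 0.0510 by edgeR. For Got1 the effect in liver minus that in brain was 0.64 (SE 0.47, adjusted p = 0.644 by edgeR). It was 0.23 without liver heat stress replicate 2, 0.38 without liver control replicate 2 and 1.00 without liver control replicate 1, the last with an unadjusted p of 0.0369 and an adjusted p of 0.234 by edgeR.

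The neighbouring pathways were described through lists of 51 genes, of which 50 had a row. In liver, 12 of 14 genes of glutamine, glutamate and ammonia handling were tested. Of these 1 was higher at an unadjusted p under 0.05 and 0 lower, with a median log2 fold change of 0.20. None of 10 arginine and ornithine genes and none of 12 amino acid breakdown genes reached that p, with medians of -0.08 and -0.09. Among 12 regulators of urea cycle genes 1 was higher and 0 lower. Over all genes 2.97% were higher and 2.87% lower at that p, so the counts of these lists are near the background. No gene of the lists had an adjusted p under 0.05 by edgeR in liver.

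The gene of the first list was Asns, asparagine synthetase, which uses glutamine to amidate aspartate and is a known target of the amino acid stress response. It measured 1.74, 1.63 and 2.89 CPM in control liver and 9.23, 3.83 and 5.44 CPM under heat stress. All heat stress libraries lay above all controls, with a log2 fold change of 1.57 (SE 0.38, unadjusted p = 0.00205, adjusted p = 0.424 by edgeR). Its adjusted p was 0.0910 by DESeq2 and 0.0287 by edgeR without the pair of muscle-containing libraries, the only alternative run in which Asns passed.

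The regulator was Cebpb, a transcription factor of the C/EBP family that responds to inflammation and fasting. It measured 71.6, 63.6 and 48.6 CPM in control liver and 90.5, 136 and 135 CPM under heat stress. Again the groups were separate, with a log2 fold change of 0.97 (SE 0.22, unadjusted p = 0.00143, adjusted p = 0.408 by edgeR). Its adjusted p was 0.0156 by DESeq2, and 0.0267 by edgeR without the pair of muscle-containing libraries. Its relative Cebpa, which maintains hepatocyte metabolism, had a log2 fold change of -0.02.

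Zonation gave a measured side to these values, since the cycle enzymes belong mostly to periportal hepatocytes and glutamine synthetase to the pericentral ones. The periportal marker list summed to 6712, 4338 and 5731 CPM in control and 5018, 6666 and 6584 CPM in heat-stressed liver. These sums overlapped, while 8 of 10 fold changes were negative with a median of -0.07. Over all 12296 genes tested, 5927 fold changes were negative and 6369 positive. The 12 pericentral markers summed to 9856 to 11034 CPM in controls and 11714 to 16354 CPM under heat stress, and 9 of 12 fold changes were positive. The sums did not overlap, but of the 12 genes taken singly 1 had heat stress libraries wholly above the controls and 1 wholly below, beside 5.38% and 5.73% of all genes. Tbx3, Lgr5 and Axin2 had negative log2 fold changes of -0.51, -0.35 and -0.30. The part of this in the members' levels was not tested. Glul, glutamine synthetase, measured 653, 734 and 582 CPM in control liver and 710, 836 and 875 CPM under heat stress. The groups overlapped, and its log2 fold change was 0.30 (SE 0.19, adjusted p = 0.934 by edgeR).

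In brain the same lists gave 1 lower gene of 12 for glutamine, glutamate and ammonia, 1 higher and 2 lower of 11 for arginine and ornithine, 1 lower of 6 for amino acid breakdown and 1 higher of 8 for regulators, all at an unadjusted p under 0.05 by edgeR and none at an adjusted p. With 10.0% of all brain genes higher and 10.0% lower at that p, these counts are near the background, and the genes are given as values. Slc38a3, a glutamine transporter of astrocytes, measured 101, 70.2 and 81.4 CPM in controls and 53.5, 65.3 and 62.5 CPM under heat stress. The groups were separate, with a log2 fold change of -0.48 (adjusted p = 0.172 by edgeR). The 6 astrocyte markers summed to 5382, 5947 and 4179 CPM in control brain and 3804, 4868 and 4541 CPM under heat stress, with 5 of 6 fold changes negative and a median of -0.21; their part in the Slc38a3 value was not tested. Cbs, which condenses homocysteine with serine, measured 38.4, 36.7 and 32.9 CPM in controls and 23.9, 26.8 and 26.2 CPM under heat stress, with a log2 fold change of -0.49 (adjusted p = 0.170 by edgeR). Its adjusted p was 0.0307 by DESeq2, while with all 12 libraries in a single edgeR fit its unadjusted p was 0.123 and its adjusted p 0.603. The other genes below that unadjusted p were Slc7a1, an arginine transporter, at -0.42 (-0.24 without brain control replicate 1, with an unadjusted p of 0.106), Azin1, an inhibitor of antizyme, at 0.27, the endothelial nitric oxide synthase Nos3 at -0.92 and the mitochondrial deacetylase Sirt3 at 0.29. Nos3 was at -0.55 without brain control replicate 1 (unadjusted p = 0.153 by edgeR). With the replicate number as a block its unadjusted p was 0.0532 by edgeR. In the single fit of all 12 libraries the unadjusted p by edgeR was also above 0.05 for Slc38a3 (0.0997), Slc7a1 (0.139), Azin1 (0.185) and Sirt3 (0.109), and it was 0.0379 for Nos3. The endothelial markers summed to 72.1, 31.1 and 39.0 CPM in control brain and 20.8, 27.9 and 19.3 CPM under heat stress, and the 3 tested, Pecam1, Cdh5 and Kdr, all had negative fold changes at an unadjusted p under 0.05 (median -1.05); their part in the Nos3 value was not tested.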

How the data were processed

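Messenger RNA of liver and brain was sequenced as paired-end, strand-specific libraries. The authors deposited raw counts per gene symbol, made per their processing notes with Trimmomatic 0.39, HISAT2 2.2.1, mm10 and featureCounts of Subread 2.0.1; the paper's methods also name Tophat2 and HTSeq. The annotation release, the strand setting and the rule for multi-mapping reads are not given in the sources used here. Deposited tables of the authors' own fold changes and p-values were not used. Every library column of the count table was used.

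Counts were tested with edgeR 4.0.16 in R 4.3.3 (quasi-likelihood with robust estimates, TMM, filterByExpr with a minimum count of 10 and total of 15), and p-values were adjusted by Benjamini-Hochberg over all genes tested. The heat effect was fitted within each tissue, control liver against control brain in the control libraries, and the difference of heat effects over all 12 libraries. A standard error is the size of the log2 estimate divided by the root of its F statistic. Normalised CPM used TMM factors within a tissue, and CPM per kilobase factors over all libraries and exon lengths of GENCODE M21 on GRCm38. Log2 levels relative to the members had a prior count of 2. The fits were tested on simulated data. Some further genes of the set and lists are not reported here. Members and lists were chosen with earlier results of these data known; pathway genes are named at an unadjusted p under 0.05, up to 8 per list and tissue. Alternatives were RLE and upper quartile scaling, library size alone (added after seeing the data), DESeq2 1.42.0, other filters, all libraries in a single fit, the replicate number as a block, the column suffix as a factor, and libraries left out. Control liver and control brain libraries of the same number deviated together (correlations 0.353, 0.339 and 0.113). Those of different numbers had correlations from -0.357 to 0.0255. By the rule used these numbers count as pairs. With 3 libraries per group the correlations are not independent of each other, and they do not show a shared animal. In the heat stress groups libraries of the same number did not deviate together (0.0493, -0.195 and 0.0373). The labels do not state where such a pairing would come from.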

Additional observations from a re-analysis of the deposited data

How the results depend on the processing

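With 3 libraries per group, the 95% interval of the liver fold change ran from -0.27 to 0.49 for Slc25a13, the narrowest of the members, and from -1.25 to 0.37 for Ass1, the widest. Where an adjusted p was given, no member passed 0.05 for the heat effect in liver, in brain or between tissues under any alternative run (DESeq2 gave none in brain for Asl, Slc25a15 and Slc25a13), and 8 members stayed higher in control liver, 8 to 9 when libraries were left out in turn: Got1 passed without liver control replicate 2 (log2 0.69, adjusted p = 0.0457 by edgeR), and with library size alone, an alternative chosen after seeing the data, it turned to lower in liver (log2 -0.71). Counts of all genes at an adjusted p moved more. In liver they were 0 higher and 0 lower by edgeR, 28 and 33 by DESeq2, 9 and 16 without control replicate 1, and 46 and 35 without the muscle-containing pair. In brain they were 0 and 0 by edgeR and 318 and 300 by DESeq2.

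Members at an unadjusted p under 0.05 were 0 in liver, but 1 under DESeq2 and with all 12 libraries in a single fit (Slc25a15), 1 with the suffix as a factor (Got1), and 0 to 1 with each library left out. With the suffix as a factor 529 of all 12296 genes were higher and 517 lower at that p, and in the single fit 525 and 863 of 15824. Without liver control replicate 3, where Nags was at that p, 390 of 12627 genes were higher and 303 lower. In brain the members at that p were 0 under each alternative. For the difference between tissues they were 1 (Slc25a15), but 0 under RLE scaling, with no filter, with the replicate block and without the muscle-containing pair, and 0 to 2 with each library left out. Of the 12 fits that left out a library, the unadjusted p of Slc25a15 stayed under 0.05 in those without brain heat stress replicate 3 or liver heat stress replicate 1. Leaving out libraries turned the sign of small values: in brain Slc25a13 ran from -0.16 to 0.24 and Glud1 from -0.039 to 0.12, and between tissues Asl ran from -0.11 to 0.28 and Slc25a13 from -0.094 to 0.30. The cause was not tested.

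With the replicate number as a block, 0 members passed the adjusted threshold in liver, 0 in brain and 0 between tissues, and 8 in control liver against control brain. Heat stress and control libraries of the same number did not deviate together (correlations in liver -0.584, -0.509 and -0.0891, in brain -0.289, 0.19 and -0.2), so they share only a number. Removing mitochondrially encoded genes changed nothing, because the table has 0 such rows.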
